A study of Mus musculus with 63 samples.

Results

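The livers of 8 male KO mice, out of 63 livers in the whole series, are described here by how their mRNA levels on days 3, 4 and 5 after the first tamoxifen injection differed from KO livers of day 0. They were taken by their genotype and day labels alone, with 2 livers on each of the 4 days, and no measured value entered the choice. The KO males carried the Alb-Cre-ERT2tg transgene and a Hcfc1 lox/Y locus, and are labelled Hcfc1 hepKO/Y. The albumin promoter expresses this recombinase in hepatocytes, and tamoxifen lets it reach the nucleus. As a reference for tamoxifen, the same change is given for 8 WT males of the same days, labelled C57BL/6 and described in the protocol as Hcfc1 lox/Y mice without the Cre transgene. Effects of Cre and of Hcfc1 deletion therefore cannot be told apart in a comparison of KO with WT livers. All mice were 10 to 14 weeks old and were scheduled for 3 intraperitoneal doses of 1 mg tamoxifen, 24 h apart, from day 0 to day 2. The sample sheet marks tamoxifen in 0 of 2 livers of each genotype on day 0 and in 2 of 2 livers of each genotype on each of days 3, 4 and 5, so the change from day 0 includes tamoxifen and the injections in both genotypes. The series follows the loss of Hcfc1 from hepatocytes over time, and each library holds the poly(A) RNA of 1 whole liver, collected in the morning.

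HCF-1, the protein made from Hcfc1, binds no DNA itself. It is brought to promoters by factors such as THAP11, ZNF143, YY1 and GABP and joins them to histone-modifying enzymes. It is best known for promoting passage through the cell cycle and the expression of housekeeping and mitochondrial genes. Hepatocytes make most plasma proteins, convert drugs and steroids, and normally rest outside the cell cycle. The deposited values are log2 read densities per exon length (log2 RPKM). Levels below are RPKM after each library was scaled to one common median, and changes are log2 differences from the day 0 mean, averaged over days 3, 4 and 5, with their standard error after ±.

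The 8 KO libraries held an estimated 27500000 to 49700000 reads and the 8 WT libraries 27600000 to 54700000. Before scaling, the median gene stood 0.69 higher (log2) on days 3 to 5 than on day 0 in KO livers and 0.50 higher in WT livers, so every change is given relative to the median gene. A change smaller than that shift turns positive on the deposited scale, as it did for 20 named genes with KO changes below 0. The summed level of 12 hepatocyte markers, none of them listed at 0, was 54501 and 58400 in the day 0 KO livers and 27106 to 29445 on days 3 to 5. In WT livers it was 73435 and 82677 on day 0 and 80133 to 96358 later. Alb alone made up 24000 and 25770 of the day 0 KO sums. Counted by gene, 5 of the 12 were called lower in KO livers (median change -0.32) and 6 in WT livers (median -0.45), with none higher in either. In RNA from whole liver, fewer cells of a type and less RNA per cell cannot be told apart. One day 3 KO library, replicate 1, stood apart in neutrophil markers, with a summed level of 1538 against a median of 44.5 over the 6 libraries of days 3 to 5, and in duct cell and progenitor markers, at 3086 against 1384 to 1816 in the other 5.

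Hcfc1 itself (mm9, chromosome X, 71188131 to 71211696, minus strand) did not fall. Its level in KO livers was 7.91 and 7.50 on day 0, and 12.5, 14.9 and 16.7 as the lowest, median and highest of days 3 to 5. In WT livers it was 6.09 and 7.94 on day 0 and 6.25 to 8.35 on days 3 to 5. All 6 later KO livers lay above both day 0 livers, while the WT groups overlapped. The KO change was 0.92 ± 0.16 (limma, adjusted p = 9.4e-05), the WT change was 0.00, and the difference between them was 0.92 ± 0.23 (adjusted p = 0.0071). The last of these was lost without WT day 0 replicate 2, at 0.73 (adjusted p = 0.079). The value counts reads from exons inside and outside the lox-flanked stretch and so does not measure deletion.

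Between day 0 and days 3 to 5, 5014 of 12221 tested genes changed in KO livers at an adjusted p under 0.05, or 41.0%. Of these, 2739 (22.4% of tested genes) rose and 2275 (18.6%) fell. In WT livers 2631 genes (21.5%) changed, with 1519 (12.4%) higher and 1112 (9.10%) lower. The difference between both changes was called for 2279 genes (18.6%), 1166 of them (9.54%) with the higher change in KO and 1113 (9.11%) with the lower. Changes past 4-fold were called for 237 rises and 131 falls in KO livers and for 211 rises and 30 falls in WT livers. On day 0 the genotypes differed in 11 genes (0.0900%), with 850 at an unadjusted p under 0.05. The 5 lower in KO livers (0.0409%) were Bhlha15, Dct, Lrtm1, Arfgap3 and Dnajb9, and the 6 higher (0.0491%) were Usp18, Atxn1, Agpat9, Zbtb7c, Ccl7 and Actc1.

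The counts rest on the scale and on the 2 day 0 livers. On the deposited scale, where the shift of the median gene counts as change, 8622 genes were called higher and 314 lower in KO livers. From replicate 1 libraries alone 872 genes were called, and from replicate 2 libraries alone 1944. Leaving out KO day 0 replicate 1 left 3011 calls and leaving out replicate 2 left 3282. Of 228 called genes taken by the naming rule or singled out from a list, 66 lost that call without 1 of the 8 KO libraries, and each of the 66 did so without 1 of the 2 day 0 libraries. Of 12221 genes, 5694 (46.6%) had KO groups that did not overlap, and 4105 (33.6%) had WT groups that did not overlap.

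**Figure D1:**
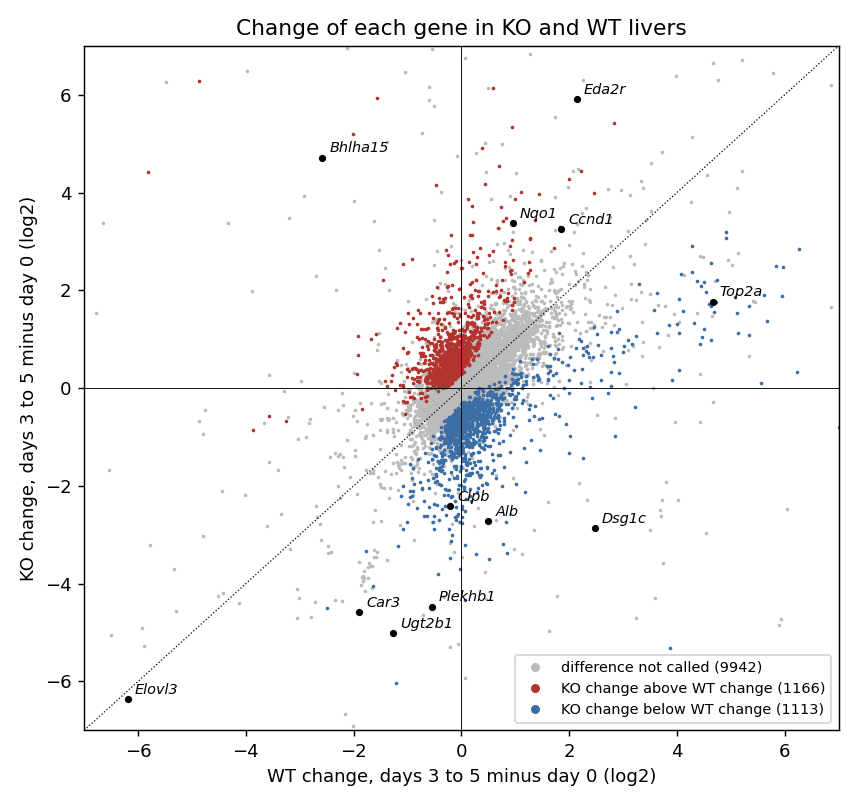
Change of each of 12221 tested genes in KO livers (vertical, log2, days 3 to 5 minus day 0) against the change in WT livers (horizontal, same days). Colour marks the 1166 genes whose KO change was higher and the 1113 whose KO change was lower than the WT change by limma; 60 genes lie outside the plotted range of 7 on either axis.

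Among the 12 largest rises in KO livers, a few genes went from almost nothing to a clear level. Ly6d, a surface protein of lymphocyte progenitors and fetal liver, stood at 0.672 and 0.889 on day 0 and at 115, 158 and 339 as the lowest, median and highest on days 3 to 5. In WT livers it was 0.424 and 0.545 on day 0 and 2.16 to 4.70 later. Neither genotype's groups overlapped, and the rise was 7.82 ± 0.43 in KO (adjusted p = 5.7e-12) and 2.67 in WT livers, a difference of 5.15 ± 0.61 (adjusted p = 3.0e-06). Flrt1, a leucine-rich repeat membrane protein, was 0.0529 and 0.0225 on day 0 and 3.11, 8.38 and 14.5 later. Its rise was 7.82 ± 0.55 (adjusted p = 1.5e-10) against 2.71 in WT livers, which was called as a difference. Eda2r, a death-domain receptor that p53 induces, rose by 5.91 ± 0.50, with levels of 0.0720 and 0.0185 on day 0 and 0.607 to 3.83 later. Its WT change was 2.14 and the difference was 3.77 ± 0.71 (adjusted p = 0.00060). The size of rises from such low levels depends on the scale: with 0.1 RPKM added to each value, they were 5.40 for Flrt1 and 3.58 for Eda2r, both still called.

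Other large rises were called in WT livers too. Cux2, a repressor normally found in female liver, rose by 7.55 ± 0.80 in KO and 6.48 in WT livers (difference 1.07 ± 1.13, adjusted p = 0.57), or by 4.66 and 3.01 with 0.1 RPKM added. Cyp2b10, the drug-metabolising enzyme induced by the receptor CAR, rose by 6.39 ± 0.74 in KO and 3.99 in WT livers (difference 2.41 ± 1.04, adjusted p = 0.11). Its KO levels ran from 12.6 to 64.9 after 0.182 and 0.610 on day 0, with no overlap. Reads of Cyp2b10 and Cyp2b9 may be split between near-identical gene copies. Akr1b7, an aldo-keto reductase, rose by 5.42 ± 0.62 in KO and 2.82 in WT livers, or by 4.07 and 1.77 with 0.1 RPKM added. The difference of 2.60 ± 0.88 (adjusted p = 0.040) was lost without any of 9 of the 16 libraries taken one at a time.

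The remaining large rises were of genes listed at 0 in 1 or both day 0 KO livers, for which levels are given and no fold. Plch2, a phospholipase C, was at 0 in both day 0 livers and between 0.916 and 9.76 on days 3 to 5, while WT livers reached at most 0.306. Rbp2, a retinol carrier of the gut, was at 0 in both genotypes on day 0 and reached 0.310 to 3.36 in KO and 0.141 to 1.13 in WT livers. Cyp2b9, a female-biased P450, was at 0.207 and 0 on day 0 and at 0.578, 16.6 and 86.5 as the lowest, median and highest later. Tmc5, Retnlg and 2310034O05Rik were each at 0 in 1 day 0 KO liver, with mean levels of 1.29, 1.12 and 1.50 on days 3 to 5. The calls for Cyp2b9 and Retnlg were lost without day 0 replicate 2 (adjusted p = 0.14 and 0.60). Those for Tmc5 and 2310034O05Rik were lost without day 0 replicate 1 (adjusted p = 0.31 and 0.32).

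The 12 largest falls included several liver enzymes. Hsd3b5, a steroid dehydrogenase of male liver, was at 244 and 211 on day 0 and at 0.0601 to 1.89 on days 3 to 5, a change of -8.75 ± 1.14 (adjusted p = 1.7e-06). The WT livers spanned 1.79 to 88.1 after 195 and 244, a change of -3.81. The difference of -4.94 ± 1.62 (adjusted p = 0.034) was lost without any of 7 of the 16 libraries. Ugt2b1, a glucuronosyltransferase, went from 441 and 409 to between 4.52 and 28.3, a change of -5.01 ± 0.38 (adjusted p = 4.9e-10). WT livers kept 158 to 249 after 464 and 505, a change of -1.27, and the difference of -3.74 ± 0.54 was called (adjusted p = 3.2e-05). The KO groups were apart, and the lowest WT liver lay above the highest KO liver of days 3 to 5.

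Car3, the cytosolic carbonic anhydrase abundant in male liver, was at 3564 and 2870 on day 0 and at 90.5 to 221 later, a change of -4.59 ± 0.38. WT livers held 704 to 993 after 2774 and 3458, a change of -1.90. Plekhb1, a pleckstrin-domain protein, fell by 4.47 on the log2 scale (SE 0.40) from 8.06 and 8.41 to 0.124 to 1.27, while WT livers overlapped their own start (10.4 and 13.6, then 6.50 to 11.9). Gm4477, a predicted gene, changed by -6.04 ± 0.64 (-4.14 with 0.1 RPKM added), from a mean of 2.20 to 0.0399. Elovl3 and Gm4956 fell in both genotypes. Elovl3, a fatty acid elongase, changed by -6.37 ± 0.66 in KO and -6.20 in WT livers (difference -0.17 ± 0.94, adjusted p = 0.93), and Gm4956, a predicted gene, by -4.56 ± 0.78 and -5.29. Mup21, one of a cluster of near-identical major urinary proteins whose reads may be split between copies, changed by -4.51 ± 0.35 in KO and -2.49 in WT livers.

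The last 4 of the 12 largest falls ended with 1 or more KO livers listed at 0. Ces4a, a carboxylesterase, had mean levels of 2.67 on day 0 and 0.0396 on days 3 to 5 with 1 library at 0. Gm12718 went from 4.71 to 0.153 and Zfp72, a zinc-finger gene, from 1.52 to 0.122, each with 1 library at 0. Mir290b, in a poly(A) library a precursor fragment at best, was at 0 in 3 of 6, and its call was lost without any 1 of 5 of the 8 KO libraries. Zfp72 in WT livers was at 1.19 on day 0 and 1.15 later, and its difference missed the threshold (adjusted p = 0.051). With 0.1 RPKM added to each value the differences between genotypes were called for Zfp72 (-2.94, adjusted p = 5.6e-05), Ces4a (-2.84, adjusted p = 0.0034) and Gm12718 (-2.64, adjusted p = 0.032).

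**Figure D2:**
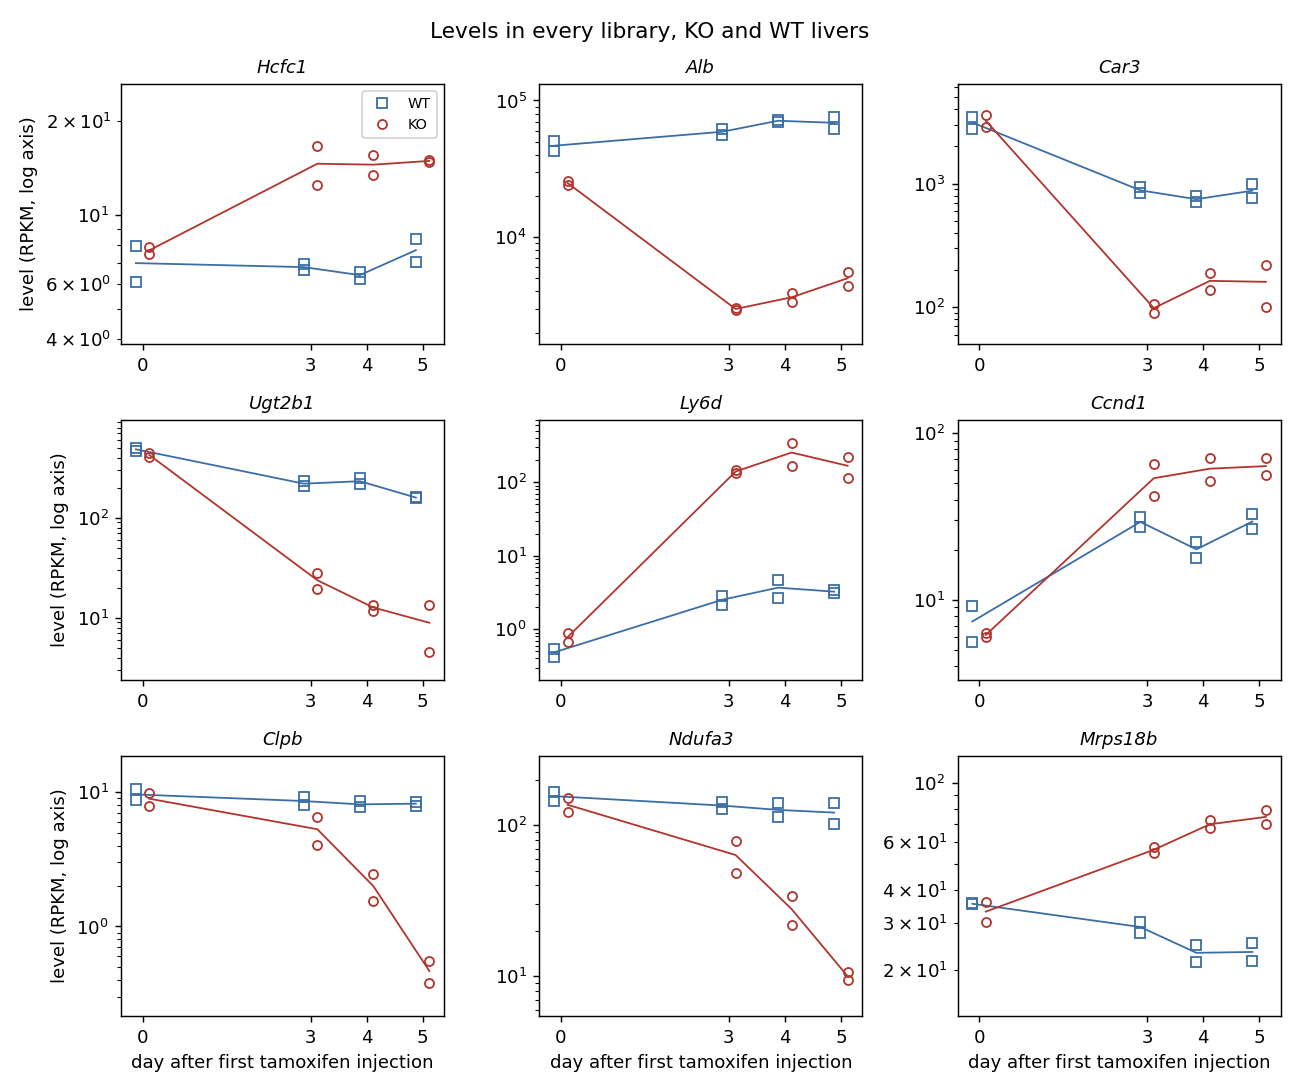
Level (RPKM scaled to a common library median, log axis) of 9 genes in each liver by day, with KO livers as circles, WT livers as squares and lines through the daily means. Ly6d and Ccnd1 were high and Alb, Car3 and Ugt2b1 low in KO livers by day 3, while Clpb and Ndufa3 stood lower in KO livers on each later day.

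Secreted proteins of the hepatocyte moved both ways, in shares near those of all tested genes. Of 51 tested members, 10 rose and 12 fell in KO livers, and 4 rose and 7 fell in WT livers. Over all tested genes 22.4% rose and 18.6% fell in KO livers. The list's median KO change was 0.02, against 0.03 over all tested genes. On the deposited scale 32 rose and 4 fell in KO livers, and after quantile normalisation 26 rose and 6 fell. Alb, the main plasma protein, was at 24000 and 25770 on day 0 and at 2902, 3625 and 5579 as the lowest, median and highest later. WT livers held 50410 and 42900 on day 0 and 55970 to 75270 later. The KO groups were far apart, and the KO change of -2.72 ± 0.53 (adjusted p = 0.00023) differed from the WT change of 0.50 by -3.23 ± 0.75 (adjusted p = 0.0037). C9, the pore-forming component of complement, changed by -1.96 ± 0.23 with a WT change of -1.51. Serpina3k, a protease inhibitor, changed by -1.51 ± 0.22. In the other direction Itih3, a hyaluronan-binding inter-alpha-trypsin inhibitor chain, rose by 1.88 ± 0.24. With 0.1 RPKM added the WT changes of Serpina3k and Itih3 were -0.61 and 0.73.

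Among all tested genes, 22.4% rose and 18.6% fell in KO livers, and 12.4% and 9.10% in WT livers. Of 27 tested genes listed as hepatocyte transcription factors, 5 rose and 3 fell in KO livers, and 2 rose and 3 fell in WT livers. Those that fell in KO livers included Nr1i3 and Gata4, which is also on the endothelial list. The median KO change of the 27 was 0.10. Nr1h4, the bile acid receptor FXR, rose by 0.48 ± 0.13, Nr1h2 by 0.50 ± 0.09 and Cebpd by 1.26 ± 0.35. Gata4 changed by -0.75 ± 0.16 and Nr1i3, the receptor CAR, by -0.95 ± 0.30. With 0.1 RPKM added the WT changes of Nr1h4, Nr1h2, Cebpd, Gata4 and Nr1i3 were -0.03, 0.31, 0.14, -0.42 and -0.78. Without centring, on the deposited scale, 22 of the 27 rose and none fell, and 2 rose without either day 0 KO library. The calls of Nr1h4, Cebpd and Nr1i3 were lost without 1 day 0 KO library (adjusted p = 0.12, 0.13 and 0.14). Hcfc1 and genes of HCF-1 partner proteins numbered 28 tested, of which 10 rose and 2 fell in KO livers with a median change of 0.0081, and 2 and 0 did in WT livers. Thap1, a relative of THAP11, went from 2.70 in both day 0 livers to 6.73 to 9.78 and rose by 1.61 ± 0.15, where the WT change was -0.18. Yy1 rose by 0.82 ± 0.08 and Zfp143, the mouse ZNF143, by 0.61 ± 0.10. The 2 that fell were Hcfc1r1, a regulator of HCF-1 export from the nucleus, with a change of -0.73 ± 0.13, and Hdac1, a histone deacetylase, with -0.31 ± 0.10. The call of Hdac1 was lost without either day 0 KO library, and without replicate 1 of day 0 6 partners rose; on the deposited scale 23 rose and none fell.

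Among all tested genes, 22.4% rose and 18.6% fell in KO livers. Genes that growth hormone keeps different between male and female liver fell more often than they rose in KO livers. Of 37 tested, 9 rose and 19 fell with a median change of -0.57, against 7 and 14 with a median of 0.00 in WT livers; on the deposited scale 13 rose and 13 fell. Male-biased members included Hsd3b5, Elovl3, Car3 and Mup21 above, and the female-biased Cux2 and Cyp17a1, a steroid hydroxylase, rose in both genotypes (Cyp17a1 by 3.62 ± 0.41 in KO and 3.52 in WT livers). The difference between genotypes was called for 8 members, all with the lower KO change. The P450 and conjugation enzymes overlap this list. Of 53 tested, 12 rose and 20 fell with a median of -0.32, against 6 and 18 with -0.37 in WT livers; on the deposited scale 24 rose and 13 fell. Cyp2u1, a fatty acid hydroxylase, changed by -2.74 ± 0.22 in KO livers with a WT change of -1.01 (difference adjusted p = 0.00034). Por, the electron donor of the microsomal P450 enzymes, rose by 1.60 ± 0.23. With 0.1 RPKM added the WT change of Por was 0.79, and the difference was not called (limma adjusted p = 0.072). Sult3a1, a female-biased sulfotransferase, was listed at 0 in 1 day 0 KO liver and had a mean level of 0.310 later. Its call was lost without day 0 replicate 2, day 3 replicate 1, day 4 replicate 1 or 2 or day 5 replicate 2. With day 0 replicate 2 left out, 4 of the 37 growth hormone genes and 7 of the 53 enzymes rose.

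Bile acid genes moved both ways, where 22.4% of all tested genes rose and 18.6% fell in KO livers. Of 30 tested, in KO livers 7 rose and 11 fell, with 1 and 8 in WT livers; on the deposited scale 16 rose and 4 fell. Baat, which joins bile acids to taurine and glycine, was at 163 and 159 on day 0 and at 39.1, 48.4 and 57.1 as the lowest, median and highest later, against 121 to 149 in WT livers after 198 and 182. Its changes were -1.75 ± 0.13 in KO and -0.46 in WT livers, and the difference of -1.29 ± 0.18 was called (adjusted p = 1.9e-05). Akr1c6, a hydroxysteroid dehydrogenase, changed by -2.04 ± 0.18, Hsd3b7, of the synthetic pathway, by -0.91 ± 0.14, and the uptake carrier Slco1a1 by -2.81 ± 0.45. Their WT changes were -0.59, -0.18 and -1.13 with 0.1 RPKM added. Without day 0 replicate 1 or 2, 4 rose in each case and 8 and 7 fell. Cyp7a1, the rate-limiting enzyme, changed by -1.49 ± 0.59, a call lost without any 1 of 6 of the 8 KO libraries.

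Lipid and sugar genes moved one by one. Over all tested genes 22.4% rose and 18.6% fell in KO livers, and 12.4% and 9.10% in WT livers. Of 29 lipogenic genes 7 rose and 3 fell in KO livers, and 1 rose and 3 fell in WT livers. Agpat9, a glycerolipid acyltransferase, rose by 2.12 ± 0.20 in KO and 3.29 in WT livers. Acly, which makes cytosolic acetyl-CoA, was at 125 and 145 on day 0 and at 137 to 860 later. Day 3 replicate 1 lay within the day 0 range, and the change was 1.64 ± 0.35 (adjusted p = 0.00064) against -0.07 in WT livers. Fasn rose by 1.02 ± 0.33, a call lost without day 0 replicate 1 (adjusted p = 0.23), and the 3 that fell were Elovl3, Elovl1 and Acss2, the last 2 not without either day 0 library. Without day 0 replicate 1 or 2, 2 and 4 lipogenic genes rose. Cholesterol synthesis had 1 of 23 higher and 1 lower in KO livers, and 1 and 0 in WT livers. The 1 lower was Tm7sf2, a call lost without any 1 of 6 libraries. Of 40 genes of fatty acid oxidation 9 rose and 6 fell in KO livers, near the shares over all tested genes. In WT livers 8 rose and 9 fell. The KO counts were 3 and 5 without day 0 replicate 1 and 6 and 3 without replicate 2, and on the deposited scale 32 rose and 1 fell. Etfdh, the flavoprotein dehydrogenase that reduces ubiquinone, was at 132 and 131 on day 0 and at 29.2 to 59.6 later. Its change of -1.61 ± 0.10 (adjusted p = 4.3e-11) differed from the WT change of -0.40 by -1.21 ± 0.14 (adjusted p = 3.1e-06). Acadm, the medium-chain dehydrogenase, rose by 0.70 ± 0.12 while its WT change was -0.13. Uncentred, 15 lipogenic genes rose and 1 fell and 20 genes of cholesterol synthesis rose.

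G6pc, which releases free glucose, was at 188 and 206 on day 0 and at 27.5 to 42.1 on days 3 to 5, a change of -2.45 ± 0.35 against -0.83 in WT livers. Of 30 genes of glucose handling 6 fell and 5 rose (Slc2a2, Dak, Hk2, Hk1 and Pkm) in KO livers, and 2 fell and 5 rose in WT livers. Over all tested genes 22.4% rose and 18.6% fell in KO livers. On the deposited scale 21 of the 30 rose and 2 fell in KO livers. With 0.1 RPKM added, Hk1, Hk2 and Pkm rose by 0.81, 0.79 and 1.11 in KO and by 0.75, 0.69 and 1.07 in WT livers. Slc2a2, the hepatocyte glucose transporter, rose by 1.03 ± 0.20 in KO and fell by 0.73 in WT livers. Of 40 genes of the urea cycle and amino acid breakdown 7 fell and 5 rose (Oat, Ftcd, Hpd, Bhmt and Uroc1) in KO livers. In WT livers 9 fell and 3 rose, and the medians were -0.18 in KO and -0.27 in WT livers. On the deposited scale 2 fell and 21 rose in KO livers. Tdo2, which opens tryptophan breakdown, was at 933 and 862 and then at 167 to 293, a change of -2.02 ± 0.20 in KO and -1.48 in WT livers. Arg1, the last enzyme of the urea cycle, changed by -1.32 ± 0.20 and Cps1, the first, by -1.11 ± 0.17. With 0.1 RPKM added their WT changes were -0.36 and -0.84. On that scale the difference was called for Arg1 (-0.95, limma adjusted p = 0.020) and not for Cps1 (-0.25, adjusted p = 0.52). Among 20 pericentral genes 6 rose and 3 fell (Cyp2e1, Cyp1a2 and Rgn) in KO livers, and 1 rose and 3 fell in WT livers. The difference was called for 6, all higher in KO, among them the ammonium transporter Rhbg with a KO change of 1.54 ± 0.23 and a WT change of -0.43. The calls of Hpd, Bhmt, Uroc1, Rgn and Dak were lost without day 0 replicate 1. Without it 2 genes of amino acid breakdown and 3 pericentral genes rose, and without replicate 2, 2 and 4. Uncentred, 13 pericentral genes rose and 2 fell.

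**Figure D3:**
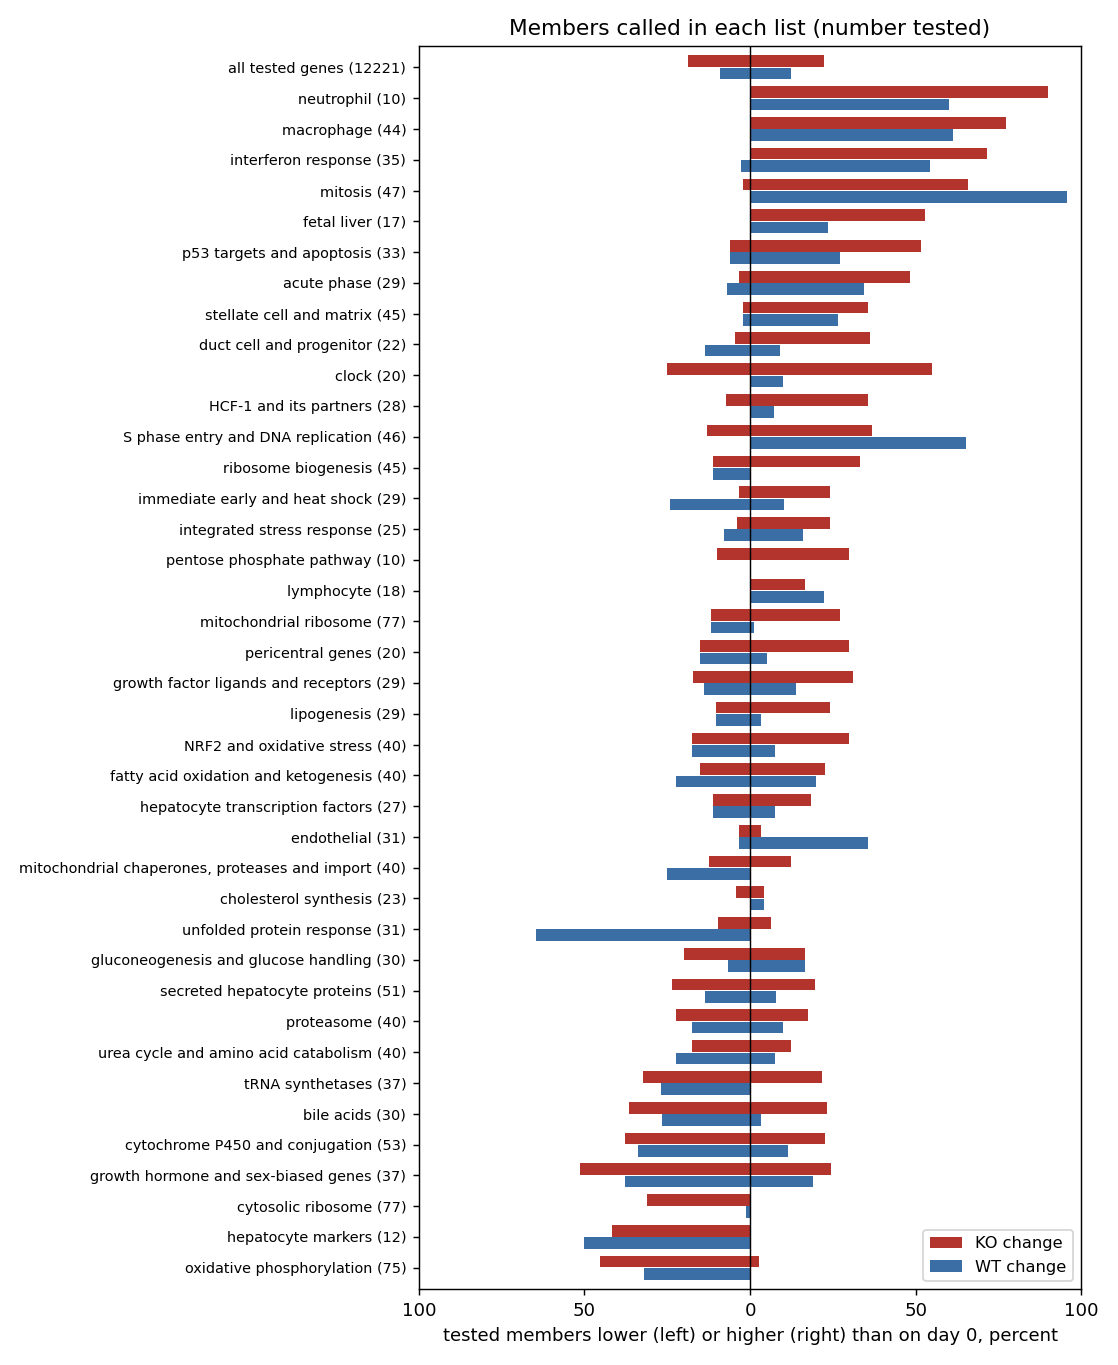
Percent of the tested members of each gene list called higher (right) or lower (left) by limma on days 3 to 5 against day 0, in KO and in WT livers. Most members of the mitosis, macrophage and interferon lists were called higher, and of oxidative phosphorylation and the cytosolic ribosome 34 and 24 lower against 2 and 0 higher in KO livers, relative to the median gene; on the deposited scale the last 2 turn, with 40 and 56 members higher.

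Clpb and Ndufa3 are mitochondrial genes that stood lower on each successive day. Clpb, a disaggregase of the mitochondrial intermembrane space, was at 7.94 and 9.93 on day 0, at 4.06 and 6.54 on day 3, at 1.55 and 2.45 on day 4 and at 0.380 and 0.552 on day 5. The daily values did not overlap each other, and WT livers stayed at 7.69 to 9.13 after 8.69 and 10.6. The KO change was -2.42 ± 0.26 (adjusted p = 1.0e-07), the WT change -0.21, and the difference -2.21 ± 0.37 (adjusted p = 0.00015). Ndufa3, a subunit of respiratory complex I, followed the same course: 122 and 152 on day 0, 48.5 and 78.7 on day 3, 22.0 and 33.9 on day 4, and 10.6 and 9.43 on day 5. WT livers held 102 to 143 after 145 and 167. The KO change was -2.41 ± 0.23 (adjusted p = 1.3e-08) and the difference -2.11 ± 0.32 (adjusted p = 5.7e-05). Uqcr10, of complex III, changed by -1.47 ± 0.19, Atp5d, of the ATP synthase, by -1.40 ± 0.19, and Vars2, the mitochondrial valyl-tRNA synthetase, by -1.59 ± 0.14, while their WT changes were -0.37, -0.15 and -0.14.

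The promoters of several of these genes hold the element ACTACANNT, to which THAP11 and ZNF143 are known to bind and recruit HCF-1. The 250 bases upstream of 4 falling genes are printed to show it, from RefSeq (GRCm38.p6), 5′ to 3′ on the gene's own strand, with the element in capitals and read on either strand. They lie at chr7:101663501-101663750 (Clpb, plus strand), chr7:3617123-3617372 (Ndufa3, plus), chr3:79628768-79629017 (Etfdh, minus) and chr11:4704345-4704594 (Uqcr10, minus).
Clpb: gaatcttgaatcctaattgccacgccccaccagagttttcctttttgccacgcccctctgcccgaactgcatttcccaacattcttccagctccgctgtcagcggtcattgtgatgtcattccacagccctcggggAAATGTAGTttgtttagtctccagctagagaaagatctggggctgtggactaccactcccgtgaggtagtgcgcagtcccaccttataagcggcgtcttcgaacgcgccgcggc
Ndufa3: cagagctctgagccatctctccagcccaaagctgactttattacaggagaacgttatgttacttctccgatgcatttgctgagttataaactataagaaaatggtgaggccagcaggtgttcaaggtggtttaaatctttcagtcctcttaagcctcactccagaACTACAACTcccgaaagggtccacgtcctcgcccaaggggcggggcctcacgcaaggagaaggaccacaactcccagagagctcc
Etfdh: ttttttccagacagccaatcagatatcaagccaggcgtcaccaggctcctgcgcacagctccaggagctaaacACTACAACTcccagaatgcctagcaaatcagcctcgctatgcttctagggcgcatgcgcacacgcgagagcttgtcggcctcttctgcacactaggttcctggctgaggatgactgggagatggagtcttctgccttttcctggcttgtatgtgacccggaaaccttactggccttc
Uqcr10: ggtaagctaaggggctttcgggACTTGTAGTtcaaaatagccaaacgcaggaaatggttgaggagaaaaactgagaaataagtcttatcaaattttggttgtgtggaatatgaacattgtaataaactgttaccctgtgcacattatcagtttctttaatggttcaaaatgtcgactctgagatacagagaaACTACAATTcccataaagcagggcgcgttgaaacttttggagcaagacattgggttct

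Of matched genes called lower in KO livers, 158 of 1822 (8.67%) held the element on either strand. It stood in 99 of 2191 (4.52%) of genes called higher and in 567 of 9667 (5.87%) of tested genes. Among all 27025 genes with a promoter entry, 1159 (4.29%) held it. A gene was counted if any of its promoter entries held the element, and 1964 of the 9667 tested genes had more than 1 entry. Only 79.1% of tested genes had a promoter in the table, with 80.1% of those called lower and 80% of those called higher in KO livers. The shares cover only these genes, were not tested against each other and are given as a description. Genes called lower in WT livers held it in 59 of 900 (6.56%). Among genes with a called difference between genotypes it stood in 87 of 894 (9.73%) with the lower and in 48 of 948 (5.06%) with the higher KO change. Of the genes chosen for naming that had a promoter, 12 of 69 called lower and 4 of 116 called higher held it, the last being Acly, Isg15, Lig1 and Rpia. For comparison, the YY1 letters AANATGGC stood in 5.38% of genes called lower and 5.43% of those called higher (5.38% of tested genes and 4.49% of all). The ETS letters CCGGAAG stood in 13.0% and 14.3% (15.4% and 7.83%), and the NRF1 letters GCGCATGCG in 3.35% and 2.88% (3.31% and 1.64%). Among genes with a called difference, ETS letters stood in 12.3% with the lower and 20.5% with the higher KO change. YY1 letters stood in 5.26% and 7.07% of these genes, and NRF1 letters in 3.13% and 3.9%. These are shares of letters in a window and no test was made of them.

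Oxidative phosphorylation as a list stood lower relative to the median gene in both genotypes. Of 75 tested members, 34 fell and 2 rose (Ndufa7 and Ndufs8) in KO livers, and 24 fell and none rose in WT livers, with a median of -0.36 in each. Without centring 40 members rose and 3 fell in KO livers, and without day 0 replicate 2, 14 fell. The calls of Ndufa7 and Ndufs8 were lost without day 0 replicate 1. The difference was called for 5 members, 3 with the lower KO change. Subunits of the mitochondrial ribosome went both ways, where 22.4% of all tested genes rose and 18.6% fell in KO livers. Of 77, in KO livers 21 rose and 9 fell, with 1 and 9 in WT livers. On the deposited scale 68 rose and none fell in KO livers. The difference was called for 22, with 21 higher in KO. Mrps18b was at 30.3 and 35.9 on day 0 and at 54.8, 69.0 and 79.0 as the lowest, median and highest later, while WT livers went from 35.3 and 35.5 down to 21.5 to 30.3. Its changes were 1.01 ± 0.12 and -0.50, and the difference of 1.51 ± 0.16 was called (adjusted p = 9.9e-07). Mrpl11 rose by 1.15 ± 0.11 with a WT change of -0.26, whereas Mrpl24 changed by -1.11 ± 0.15 with steps of -0.15, -1.11 and -2.08 on days 3, 4 and 5.

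Among all tested genes, 22.4% rose and 18.6% fell in KO livers. Of 40 mitochondrial chaperones, proteases and import factors, 5 rose in KO livers (Lonp1, Grpel1, Tomm20, Tomm22 and Pmpcb, by 0.35 to 0.56). Another 5 fell (Clpb, Clpx, Timm9, Tomm34 and Immp1l). In WT livers 0 rose and 10 fell. With 0.1 RPKM added, the difference was called for Clpb and Tomm34 but not for Clpx, Timm9 and Immp1l. On that scale Clpx and Timm9 changed by -0.63 and -0.46 in WT livers. On the deposited scale 35 rose and 1 fell in KO livers. Cytosolic ribosomal proteins had 24 of 77 lower and 0 higher in KO livers, with a median of -0.27 and 65 members below 0. In WT livers 1 was called lower, with a median of -0.18 and 75 members below 0. The day 5 medians were -0.35 in KO and -0.36 in WT livers. On the deposited scale 56 rose and 0 fell in KO livers. Rpl6 changed by -0.50 ± 0.09, and no member's difference between genotypes was called. Ribosome biogenesis factors had 15 of 45 higher and 5 lower (Rrp1, Nop10, Bop1, Utp18 and Noc4l), against 0 and 5 in WT livers. Utp20, of the small-subunit processome, was at 2.73 and 2.43 on day 0 and at 4.75 to 7.65 later, a rise of 1.18 ± 0.09 against -0.44 in WT livers. Among 37 tRNA synthetases 8 rose and 12 fell, against 0 and 10 in WT livers, and on the deposited scale 22 rose and 1 fell. Mitochondrial Sars2 and Yars2 rose by 1.04 ± 0.15 and 0.89 ± 0.12. The calls of Lonp1, Tomm20, Tomm34 and Pmpcb were lost without day 0 replicate 1 and those of Nop10, Bop1, Utp18 and Noc4l without replicate 2. Without replicate 2, 4 cytosolic ribosomal proteins and 6 tRNA synthetases fell and 10 biogenesis factors rose. Without replicate 1, 16 ribosomal proteins fell and 7 biogenesis factors and 5 synthetases rose. With deposited values 40 biogenesis factors rose and none fell.

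**Figure D4:**
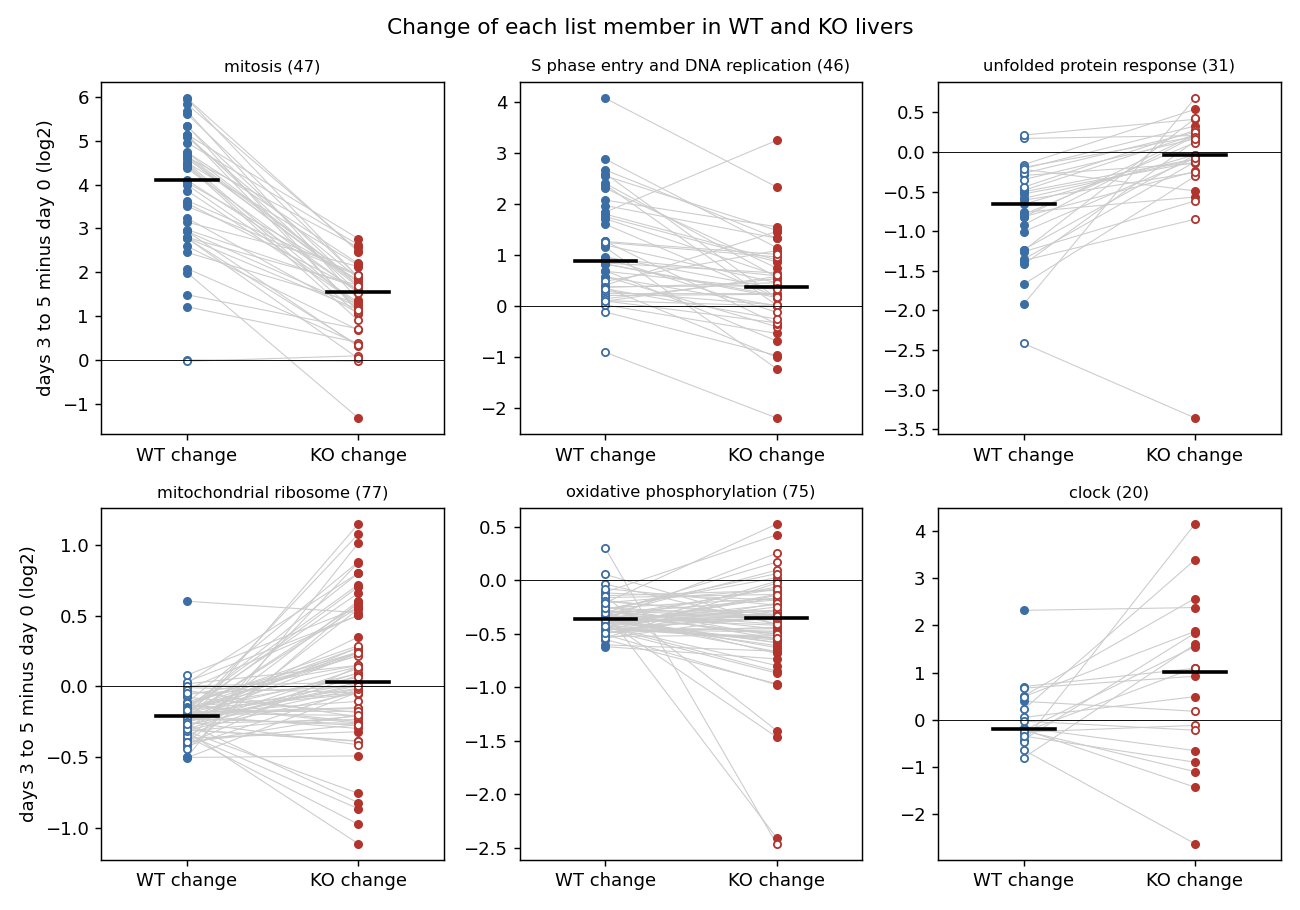
Change from day 0 to days 3 to 5 (log2, relative to the median gene) of every tested member of 6 lists, in WT livers on the left and KO livers on the right of each pair. Filled points passed the test and the bar is the list's median; mitosis sits at 4.10 in WT and 1.54 in KO livers, and the clock at -0.18 and 1.01.

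The unfolded protein response list was lower in WT livers, with 20 of 31 lower, none higher and a median of -0.66. In KO livers 3 fell (Derl3, Hspa13 and Sec11c) and 2 rose (P4hb and Derl1), with a median of -0.04, and the difference was called for 11 members, all with the higher KO change. These KO livers started lower: on day 0 the list's median was 0.59 below that of WT livers on the log2 scale, and 29 of 31 members were lower. Without centring 24 rose and 1 fell in KO livers. P4hb, protein disulfide isomerase, rose by 0.54 ± 0.15, and Derl3, of the degradation pathway, was at 4.43 on average on day 0 and 0.790 later. All 5 KO calls were lost without day 0 replicate 1. In the integrated stress response 6 of 25 rose in KO livers, and 4 rose without either day 0 library. Mthfd2, of mitochondrial folate metabolism, fell, a call lost without day 0 replicate 2. In WT livers 4 rose and 2 fell. Among all tested genes, 22.4% rose and 18.6% fell in KO livers. Gdf15, a secreted stress cytokine, rose by 4.05 ± 0.40 in KO and 2.95 in WT livers. Ddit3, the factor CHOP, was at 3.19 and 3.47 on day 0 and at 5.96 to 14.3 later; it rose by 1.44 ± 0.31 in KO and fell by 0.90 in WT livers (a WT call lost without any 1 of 5 WT libraries), with a difference of 2.34 ± 0.43 (adjusted p = 0.00046). With deposited values 16 genes of the integrated stress response rose and none fell.

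Targets of p53 stood higher on each day. Of 33 tested, 17 rose and 2 fell (Bik and Ei24) in KO livers with a median of 0.60, against 9 and 2 with 0.13 in WT livers, and the medians on days 3, 4 and 5 were 0.32, 0.48 and 0.79. Aen, a nuclease, rose by 1.36 ± 0.15 and Ccng1, a cyclin of the p53 response, by 1.20 ± 0.16, with WT changes of 0.21 and 0.01 and both differences called (adjusted p = 0.00063 and 0.00046). Phlda3, an AKT inhibitor, rose in both genotypes, by 2.51 ± 0.39 and 1.89. Cdkn1a, the cell cycle inhibitor p21, rose by 0.97 ± 0.29 in KO and 2.22 in WT livers; the KO call was lost without either day 0 KO library (adjusted p = 0.054 and 0.096). With deposited values 30 of the p53 targets rose and none fell.

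Of 40 genes of NRF2 and oxidative stress 12 rose and 7 fell, against 3 and 7 in WT livers. Nqo1, a quinone reductase, was at 2.35 and 2.44 on day 0 and at 14.4, 26.6 and 32.6 as the lowest, median and highest later. WT livers held 4.13 to 8.19 after 3.37 and 2.95, and the changes of 3.37 ± 0.25 and 0.95 differed by 2.42 ± 0.36 (adjusted p = 4.7e-05). Nfe2l2, which encodes NRF2, rose by 0.91 ± 0.14, while Gclc, of glutathione synthesis, changed by -1.34 ± 0.21. Of 10 pentose phosphate genes 3 rose (1 without either day 0 library) and 1, Pgls, fell in KO livers, and none was called in WT livers. G6pdx led the rises, from 3.40 and 6.23 to between 12.1 and 51.4 (2.55 ± 0.42). The call of Pgls was lost without any 1 of 5 libraries. Where 22.4% of all tested genes rose and 18.6% fell in KO livers, the proteasome had 7 of 40 higher and 9 lower. In WT livers it had 4 and 7, against 12.4% and 9.10% of all tested genes. On the deposited scale 35 were higher and none lower in KO livers. The 4 with the smallest p are known as interferon-inducible: Psme1, Psme2, Psmb8 and Psmb9 rose by 1.09, 1.04, 1.39 and 1.78. Their WT changes were 0.36, 0.32, 0.77 and 0.84 with 0.1 RPKM added. With deposited values 29 of the NRF2 genes rose and 2 fell.

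Mitosis genes rose in both genotypes and rose less in KO livers. Of 47 tested, 31 rose in KO livers with a median of 1.54 and 45 rose in WT livers with a median of 4.10, and the difference was called for 35, all with the lower KO change. On day 0 the KO livers started above the WT livers, with a median difference of 0.74 and 42 of 47 members higher. After quantile normalisation 17 rose in KO livers. Top2a, topoisomerase II, was at 0.334 and 0.456 on day 0 and at 0.698, 1.36 and 1.98 as the lowest, median and highest later. WT livers held 0.182 and 0.137 on day 0 and 2.71 to 6.03 later, so the lowest later WT liver lay above the highest KO liver. The changes were 1.77 ± 0.34 and 4.66, and the difference -2.89 ± 0.48 (adjusted p = 0.00017). Mki67, the proliferation antigen, and Racgap1, of cytokinesis, had KO changes of 1.72 ± 0.36 and 1.83 ± 0.33 and WT changes of 4.59 and 4.05 (3.33 and 3.11 with 0.1 RPKM added). With that addition the WT change of Top2a was 3.69. The differences of Top2a, Mki67 and Racgap1 were then called, and those of the members Kif23 and Cdca5 were not (limma adjusted p = 0.076 and 0.17). The list's medians and counts were taken without the addition, and the size of rises from low levels depends on the scale. Nek2, a centrosomal kinase, was the 1 member that fell in KO livers, from 1.05 and 1.23 to between 0.280 and 0.746, while it rose from 1.04 and 0.849 to 1.86 to 5.97 in WT livers (difference -3.32, adjusted p = 7.0e-05). Its KO call was lost without day 0 replicate 2 (adjusted p = 0.068). Without replicate 1 or replicate 2 of day 0, 21 and 17 members rose in KO livers.

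Of genes of S phase entry and replication, 17 of 46 rose and 6 fell in KO livers with a median of 0.38, and 30 rose in WT livers with 0.89. Ccnd1, cyclin D1, rose more in KO livers. It was at 5.99 and 6.31 on day 0 and at 41.9, 60.9 and 70.9 as the lowest, median and highest later, and in WT livers at 5.60 and 9.22 and then 17.9 to 32.6. All later KO livers lay above all later WT livers, and the changes of 3.25 ± 0.22 and 1.84 differed by 1.41 ± 0.31 (adjusted p = 0.0025). Cdc45, of the replicative helicase, rose by 1.46 ± 0.21. Mcm10, a replication initiation factor, fell from 10.3 and 10.2 to between 1.62 and 4.31, a change of -2.19 ± 0.34 (adjusted p = 2.0e-05), with a WT change of -0.90 that missed the threshold. Without day 0 replicate 1, 9 members of the list rose. With deposited values 34 of these 46 genes rose and 1 fell.

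Clock genes moved in both directions in KO livers. Of 20 tested, 11 rose and 5 fell (Cry1, Arntl, Clock, Npas2 and Nfil3) in KO livers, while 2 rose and none fell in WT livers. Dbp, a PAR-domain output factor, was at 0.501 and 0.657 on day 0 and at 3.93, 10.2 and 25.5 as the lowest, median and highest later. WT livers stayed between 0.431 and 2.02 after 0.663 and 1.68. The KO change was 4.15 ± 0.79 (adjusted p = 0.00020) and the difference 4.62 (adjusted p = 0.0053), the second lost without WT day 0 replicate 2 (adjusted p = 0.052). Cry1, a repressor of the core loop, went the other way, from 9.88 and 9.15 to between 1.20 and 2.37 (-2.62 ± 0.29), with a WT change of -0.64 and a called difference of -1.98 ± 0.41. Nr1d2, the repressor REV-ERB beta, rose by 1.84 ± 0.28 and Bhlhe40 by 1.87 ± 0.22, and Ciart and Per3 by 3.39 ± 0.56 and 2.57 ± 0.62 (2.13 and 1.99 with 0.1 RPKM added). Arntl, the activator BMAL1, fell. On the deposited scale 14 rose and 1 fell. Without day 0 replicate 1 or 2, 7 rose in each case and 4 and 3 fell, and the calls of Npas2 and Nfil3 were lost without replicate 2. Per-mouse collection hours within the stated morning window were not analysed here.

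Of 29 immediate early and heat shock genes 7 rose in KO livers (3 without day 0 replicate 1). Among them were Myc (1.87 ± 0.44) and Jun (1.41 ± 0.33). Hsph1, a cytosolic chaperone, fell by 1.74 (SE 0.33). In WT livers 3 rose and 7 fell, and 22.4% of all tested genes rose and 18.6% fell in KO livers. With 0.1 RPKM added the WT changes of Myc, Jun and Hsph1 were -0.24, -0.41 and -0.92. Growth factor ligands and receptors had 9 of 29 higher and 5 lower (Egfr, Tgfa, Igf1, Inhbc and Met) in KO livers, and 4 and 4 in WT livers. The calls of Igf1 and Met were lost without day 0 replicate 1. The WT changes of Tgfa, Igf1, Inhbc and Met were -0.74, 0.01, -0.71 and -0.24 with 0.1 RPKM added. On that scale the differences of these genes were not called. Egfr was at 134 and 131 on day 0 and at 14.5, 18.9 and 56.6 as the lowest, median and highest later, a change of -2.61 ± 0.29 against -0.69 in WT livers (difference adjusted p = 0.0020). WT livers held 61.5 and 68.1 on day 0, below both KO livers. Ntrk2, the BDNF receptor, rose from 0.0485 and 0.0375 to between 0.382 and 3.21 in KO livers, while in WT livers it was at 0.260 and 0.233 and then at 0.0202 to 0.117, and the difference was 7.21 ± 1.07 (adjusted p = 5.0e-05). Bhlha15, a factor of secretory cells, went from 0.0445 and 0.114 to between 0.979 and 2.89 in KO livers. It fell in WT livers from 0.815 and 1.26 to between 0.0338 and 1.02, where the groups overlapped, and the difference was 7.30 ± 0.78. With 0.1 RPKM added the differences were 4.28 for Ntrk2 and 4.97 for Bhlha15. Bhlha15 was also lower in KO than in WT livers on day 0. With deposited values 19 of the growth factor genes rose and 2 fell, Igf1 and Met among those with a positive change. Deposited values gave 18 immediate early and heat shock genes higher and 1 lower.

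Opposite moves were rare. Of the genes called in both genotypes, 944 were higher in both (18.8% of the genes called in KO and 35.9% of those called in WT livers) and 455 lower in both (9.07% and 17.3%). A further 89 were higher in KO and lower in WT livers, and 53 lower in KO and higher in WT livers. Across the 12221 genes, which are not independent, Pearson's r between both changes was 0.45 and Spearman's rho 0.43; the 2 genotypes share no library. Dsg1c, a desmosomal cadherin, fell in KO livers from a day 0 mean of 1.37 to between 0.0516 and 0.575 and rose in WT livers from 1.91 and 1.40 to between 6.70 and 11.6, a difference of -5.35 ± 0.62 (adjusted p = 2.7e-06). Krt4, a keratin of squamous epithelium, and Rasd1, a Ras-related protein, rose in both and far more in WT livers, to 5.65 to 10.8 for Krt4 and 0.904 to 3.38 for Rasd1, against 0.168 to 0.600 and 0.0601 to 0.465 in KO livers. The KO calls of both genes were lost without KO day 0 replicate 1 (adjusted p = 0.060 and 0.15) and with 0.1 RPKM added (adjusted p = 0.14 and 0.19).

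Some of the largest changes were in WT livers. Krt79, Cdkn3 and Sult3a1 were listed at 0 in 1 day 0 liver of each genotype and reached mean levels of 1.45, 1.88 and 5.01 in WT and 0.198, 0.310 and 0.310 in KO livers. The differences between their changes missed the threshold (adjusted p = 0.22, 0.67 and 0.50). With 0.1 RPKM added those of Krt79 (-2.41, adjusted p = 0.0012) and Cdkn3 (-2.12, adjusted p = 0.040) were called, and the KO calls of all 3 genes were lost. 1190002F15Rik, listed at 0 in 1 WT day 0 liver, reached 1.44 in WT and 0.328 in KO livers. Klk1b24, Ltf and Oxtr were at 0 in both genotypes on day 0 and at mean levels of 0.158, 0.151 and 0.0782 in KO and 0.649, 0.0522 and 0.519 in WT livers later. Cyp4a12a, a male P450 with near-identical copies, changed by -2.82 ± 0.74 in KO and -3.60 in WT livers, and Cyp26b1, which degrades retinoic acid, by -2.20 ± 0.68 and -4.02, the KO call lost without either day 0 KO library. The small RNAs AF357359, Snord69, Snord37, Mir6990 and Mir5133 met the rule for named genes through libraries listed at 0 and had mean levels of at most 3.67 in every group, Mir5133 having the highest.

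Macrophage and neutrophil markers were higher on days 3 to 5. Of 44 tested macrophage genes 34 rose and none fell in KO livers with a median of 1.18, and 27 rose in WT livers with 1.08. The summed level of the list was 356 and 379 on day 0 and 617 to 1266 later in KO livers, and 264 and 389 and then 466 to 1011 in WT livers, so the groups were apart in each genotype. Cd5l, of resident macrophages, went from 28.3 and 31.4 to between 65.5 and 178 (1.88 ± 0.30 in KO and 1.56 in WT livers). Cd9, a tetraspanin that hepatocytes also make, rose by 1.65 ± 0.25 with a WT change of 0.15 (difference adjusted p = 0.0047). Neutrophil genes had 9 of 10 tested higher in KO and 6 in WT livers; their summed level was 8.10 and 10.4 and then 27.2 to 1538 in KO livers. Camp, Ngp, Ltf and Elane were at 0 in both day 0 KO livers, and none of the list was at 0 in all later ones. Lcn2, which hepatocytes also make, was at 1500 in day 3 replicate 1 and at 12.7 to 54.3 in the other 5 livers; its change was 3.21 ± 1.02 and 2.23 without that library, and its call was lost without either day 0 KO library. Without day 3 replicate 1, 8 of 10 neutrophil genes rose, and without either day 0 library 5.

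Of 45 stellate cell and matrix genes 16 rose and 1 (Lrat, which stores retinol) fell in KO livers, with 12 and 1 in WT livers; 6 rose without day 0 replicate 1 and 8 without replicate 2 or after quantile normalisation. Mmp14, a membrane metalloproteinase, rose by 0.78 ± 0.15 and 0.94. Endothelial genes had 1 higher (Stab2) and 1 lower (Gata4) of 31 in KO livers and 11 higher and 1 lower in WT livers. The call of Lrat was lost without day 0 replicate 1. That of Stab2 was lost without day 0 replicate 1 or 2, day 3 replicate 1, day 4 replicate 2 or day 5 replicate 2. Lymphocyte genes had 3 of 18 higher in KO and 4 in WT livers, against 22.4% and 12.4% of all tested genes. The 3 were Zap70, by 1.89 ± 0.26, Cd79a and Cd79b. The call of Cd79b was lost without day 0 replicate 2. That of Cd79a was lost without day 0 replicate 1 or 2, day 3 replicate 1, day 4 replicate 1 or day 5 replicate 2. It was also lost with 0.1 RPKM added (limma adjusted p = 0.067). Duct cell and progenitor genes had 8 of 22 higher and 1 lower in KO livers and 2 higher and 3 lower in WT livers, and 2 were higher without day 0 replicate 1. Without day 3 replicate 1, whose summed duct cell level stood apart, 8 were higher and 1 lower. Prom1, a progenitor surface protein, rose by 1.84 ± 0.45 against -0.31. Of 17 fetal liver genes 9 rose in KO and 4 in WT livers, led by Ly6d. Afp rose by 1.27 ± 0.30 and 1.76, with overlapping KO groups and a KO call lost without day 0 replicate 1. Either day 0 library left out brought the fetal count to 4. Of 32 listed genes of pancreas, fat, gallbladder and blood cell precursors, 17 were in the table and 7 of these at 0 in all day 0 KO livers. The summed level was 110 and 113 and then 25.7 to 63.2, and Alas2, of erythroid haem synthesis, fell in both genotypes, with changes of -3.37 and -2.47. The part of these cell types in the other results was not tested. Deposited values gave 36 stellate, 22 endothelial and 17 duct cell genes higher and none lower.

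Interferon-response genes rose in both genotypes, with 25 of 35 higher in KO livers (median 0.84) and 19 higher and 1 lower in WT livers (0.73). Isg15, a ubiquitin-like modifier, was at 12.3 and 12.1 on day 0, at 24.4 and 22.8 on day 3, at 53.3 and 54.4 on day 4 and at 80.1 and 54.8 on day 5, a rise of 1.84 ± 0.17 against 0.85 in WT livers. All 35 members stood higher in KO than in WT livers on day 0, by a median of 0.45. Acute-phase genes had 14 of 29 higher and 1 lower (Hamp2, not without either day 0 library) in KO livers and 10 and 2 in WT livers. Orm2, an orosomucoid with near-identical neighbours, was at 23.4 and 33.5 on day 0 and at 260, 569 and 1996 as the lowest, median and highest later (4.45 ± 0.64). With 0.1 RPKM added its WT change was 2.08, and the difference was not called (2.37, limma adjusted p = 0.068). Saa1, serum amyloid A, was at 10570 and 386 in the day 3 KO livers and at 41.4 to 225 on days 4 and 5, after 62.8 and 93.1 on day 0; its change did not pass the test (adjusted p = 0.14). Without day 3 replicate 1, 13 acute-phase genes rose and the list's median went from 0.86 to 0.73.

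The number of called genes grew with the days, from 2875 on day 3 (23.5%) to 3952 on day 4 (32.3%) and 4551 on day 5 (37.2%), against 978 (8.00%), 1520 (12.4%) and 2393 (19.6%) in WT livers. Rises took 12.9%, 18.3% and 20.2% and falls 10.6%, 14.1% and 17.1% of tested genes on these days in KO livers, and in WT livers 5.43%, 8.28% and 11.4% rose and 2.57%, 4.16% and 8.22% fell. These daily counts share the 2 day 0 livers of each genotype. Of the 2739 genes that rose over the window, 1156 (42.2%) stood higher on each day than on the one before, and of the 2275 that fell, 1070 (47.0%) stood lower. Compared directly, 481 genes (3.94%) differed between day 5 and day 3, with 166 (1.36%) higher and 315 (2.58%) lower on day 5. The count was 195 without day 3 replicate 1, 296 and 234 without day 5 replicate 1 and 2, and 56 when the spread came from the compared days only. Clpb fell by 3.49 (SE 0.32, adjusted p = 2.2e-07) from day 3 to day 5, Ndufa3 by 2.63 (SE 0.28) and Mrpl24 by 1.93 (SE 0.19). Mup7 and Mup14, near-identical urinary proteins, had differences of -3.30 and -3.15. Saa1 and Prtn3, a neutrophil protease, had differences of -4.67 and -4.14, both from high values in day 3 replicate 1. Gsta1, Gsta2 and Gm3776, glutathione transferases with near-identical sequence, were higher on day 5 than on day 3 by 3.20, 2.88 and 3.07, and AF357359 and Snora33 rest on libraries listed at 0. Isg15 was higher by 1.49 ± 0.20 (adjusted p = 8.6e-05), and 10 of 35 interferon-response genes were called higher.

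**Figure D5:**
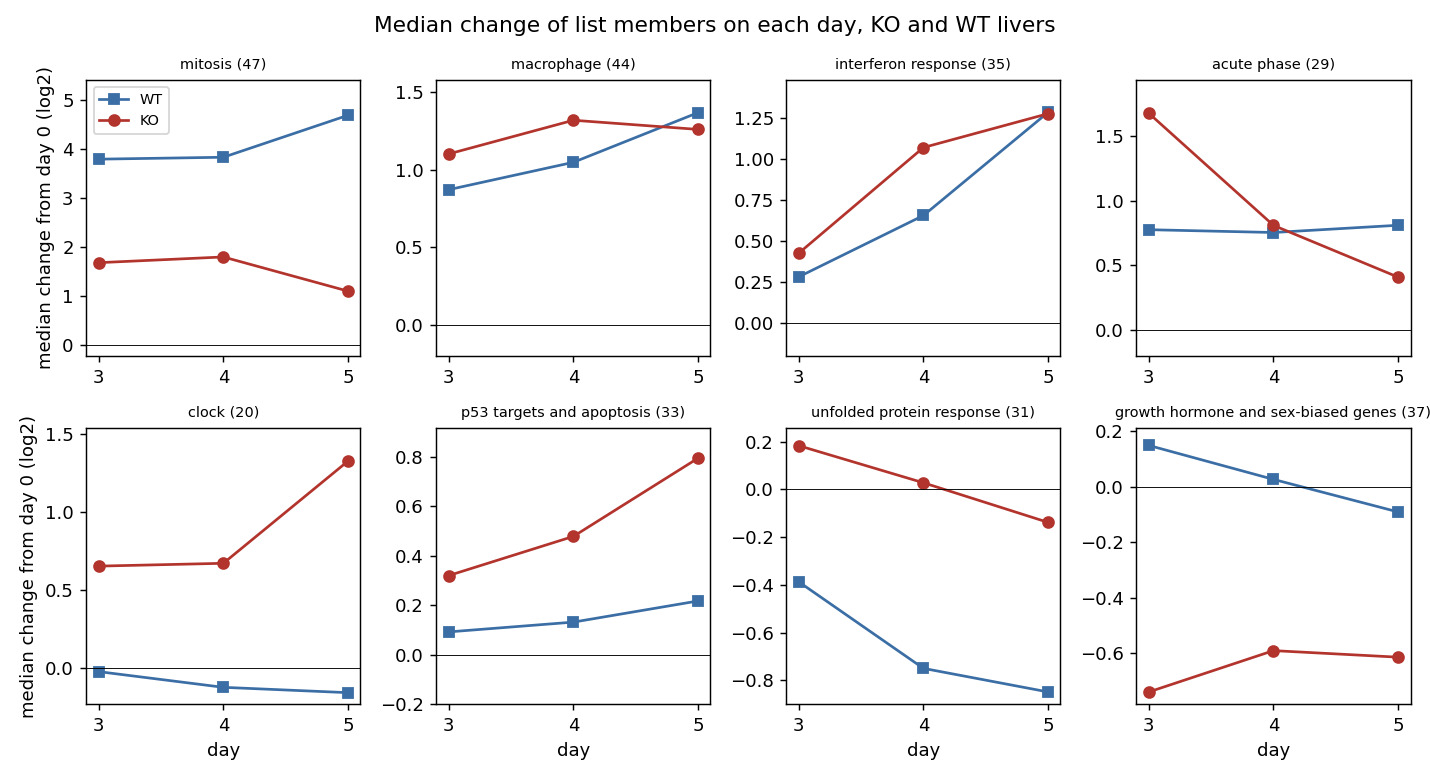
Median change from day 0 (log2, relative to the median gene) of the tested members of 8 lists on days 3, 4 and 5, with KO livers as circles and WT livers as squares. In KO livers acute-phase genes stood at 1.67, 0.81 and 0.41, interferon-response genes at 0.43, 1.07 and 1.27, mitosis at 1.68 and 1.79 on days 3 and 4 and lower on day 5, and the clock at 0.65, 0.67 and 1.33.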

How the data were processed

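The members, gene lists and tests were chosen with earlier results of these data known. For the single-end stranded poly(A) libraries, TopHat2 2.0.13, Bowtie 1.1.2, edgeR and the build mm9 are named, without their settings, per the submitters' processing notes. The authors deposited log2 RPKM per gene, a log2 scale on which zeros had been replaced by a constant of 8.9e-05. The deposited RPKM holds no counts, so read totals were estimated from the value of 1 read in weakly expressed genes of known exon length, and no count test was made.

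Of 15616 genes, 12221 were tested, those that reached a log2 value of 0 (1 RPKM) in 4 or more of 51 male libraries. Each library was centred on its median over these genes. limma 3.58.1 (R 4.3.3) was fitted with an intensity trend and 1 mean per genotype and day over the 51 male libraries (21 residual degrees of freedom), two-sided, with Benjamini-Hochberg adjustment over all tested genes and a threshold of 0.05. KO and WT changes are unweighted means of days 3, 4 and 5 minus day 0. Each library comes from an individual liver, per the labels' protocols. For levels, values were scaled to a common median log2 value of 2.51 and zeros kept at 0. A gene listed at 0 gets no fold. Tests were tried on simulated data first.

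Named genes are Hcfc1 and the 12 largest rises and 12 largest falls in KO livers. The rises and falls were called and had 1 sign on all 3 days. In the group with more, no library was at 0 and the average was 1 RPKM or above. By this rule 5 each way were taken in WT livers. For the difference and for day 5 minus day 3, 5 each way were taken among called genes. These needed a group mean of 1 RPKM or above but could have libraries at 0. Another 4 each way came from genes called in both genotypes, with no limit on level. Up to 4 members with the smallest p in each list were added. Other list members and the genes differing on day 0 were chosen after their values were seen. Alternatives were the deposited scale, quantile normalisation, other filters, a pseudocount of 0.1 RPKM, no trend, only the compared days, 1 replicate number only, a replicate block and leaving out each library. Promoters come from RefSeq (GRCm38.p6), with 9667 of the tested genes matched. Some genes that the naming rule took are not reported here.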

Additional observations from a re-analysis of the deposited data

Results flagged for a closer look

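The difference between the KO and the WT change was called for 2279 genes, and the values here are those differences on the log2 scale for the genes named by rule, each flagged because the changes of the 2 genotypes differ by the test of the difference itself. The KO change was higher for Hcfc1 by 0.92, Flrt1 by 5.11, Ly6d by 5.15, Eda2r by 3.77, Akr1b7 by 2.60, Bhlha15 by 7.30 and Ntrk2 by 7.21. It was lower for Hsd3b5 (-4.94), Gm4477 (-4.83), Ugt2b1 (-3.74), Car3 (-2.69), Mup21 (-2.02), Plekhb1 (-3.92), Dsg1c (-5.35), Krt4 (-5.34), Prtn3 (-4.88) and Clpb (-2.21). Fitted values for Plch2 (7.72), Rasd1 (-6.86), AF357359 (17.52), Snord69 (11.14), Mir6990 (-17.40) and Mir5133 (-7.81) rest on libraries listed at 0 and are no measure of size. The calls of Hcfc1, Akr1b7, Hsd3b5, Rasd1, Snord69, Mir6990, Mir5133 and Prtn3 were lost without 1 library.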

How the results depend on the processing

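The counts depend on the scale and on 2 livers per day. On the deposited scale 8936 genes were called in KO and 6233 in WT livers, 6320, 7915 and 8855 on KO days 3, 4 and 5, and 289 between days 5 and 3. From replicate 1 or replicate 2 libraries only, 872 and 1944 were called in KO livers, 218 and 946 in WT livers, and 33 and 199 for the difference. With the compared days only, 1567 were called on day 3 and 56 between days 5 and 3. Leaving out 1 library gave 3011 to 5011 calls in KO livers, 1018 to 2725 in WT livers and 1319 to 2244 for the difference. The same gave 1435 to 2444 on day 3, 2386 to 2875 on day 4, 3081 to 3821 on day 5 and 195 to 516 between days 5 and 3. The cause was not tested. The other alternatives kept each count within 1.5 times its main value.

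Same-numbered libraries of 28 pairs of groups had correlations of deviations from -0.0133 to 0.286, of which 27 were above 0 and 12 over 0.1. The numbers were not taken to pair the samples, since the labels do not say what a replicate number shares and not every value was over 0.1. They go with the marks B_1 and B_2 of the authors' sample sheet, whose meaning is not given, and with depth (34600000 to 54700000 estimated reads for number 1 and 27500000 to 37000000 for number 2), so a shared batch was not tested apart from the number. With a replicate block 5453 genes were called in KO livers, 3132 in WT livers, 2726 for the difference, 3351, 4406 and 5018 on days 3, 4 and 5, and 647 between days 5 and 3.

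On the deposited scale, which adds the shift of the median gene, these KO changes turned positive: Tm7sf2 0.066, Pgls 0.12, Sec11c 0.20, Hspa13 0.12, Timm9 0.047, Rpl6 0.19, Rpl35 0.080, Rps2 0.15, Nars2 0.11, Clock 0.043, Hdac1 0.39, Elovl1 0.12, Rgn 0.14, Ei24 0.0089, Tomm34 0.18, Bop1 0.35, Utp18 0.31, Noc4l 0.25, Met 0.40 and Igf1 0.13. These WT changes did so too: Yy1 0.41, Nr1h4 0.46, Baat 0.042, Etfdh 0.10, P4hb 0.34, Ndufs7 0.076, Mrpl38 0.35, Mrps18b 0.0027, Grpel1 0.36, Timm9 0.029, Rpl6 0.33, Rps2 0.32, Utp20 0.064, Pes1 0.40, Derl1 0.29, Ei24 0.36, Ndufa7 0.30, Ndufs8 0.40, Lonp1 0.40, Tomm20 0.35, Tomm22 0.39, Bop1 0.38, Noc4l 0.44, Met 0.25 and Igf1 0.50. Elsewhere the KO change of Oxtr was -0.034 with the pseudocount, and the WT changes were 0.38 for Serpina3k after quantile normalisation, -0.20 for Mir5133 from replicate 1 libraries, and, over the libraries left out, from -0.11 to 14.1 for Mir5133 and from -1.77 to 1.37 for Myc, the ends of each range coming from leaving out 1 or the other WT day 0 library.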
